A study of Mus musculus with 6 samples.

Results

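Small RNA reads were examined along the body and 3′ end of L1Md_A, one of the young families of LINE-1 (L1) retrotransposons of the mouse. Reads of all 6 libraries were kept when the annotated copy that holds them is of class L1Md_A and when they lie 1000 nt or more from the 5′ end of that copy, in the direction of the copy. These body reads number 13399 of the 393511 listed reads, and of the 23255 reads in L1Md_A copies. They fall in 3033 of the 3092 L1Md_A copies with a read, and in all there are 13686 L1 copies with a read.

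The cells were E14 embryonic stem cells (ESCs) of 129/Ola background, grown without feeder cells, in which TET1 or TET2 was depleted by lentiviral shRNA. Every library came from cells that carried a pLKO.1 shRNA vector and were selected with puromycin: a non-targeting sequence (shScr), an shRNA against Tet1 (shTet1) or an shRNA against Tet2 (shTet2), with 2 libraries each. Each knockdown used 1 shRNA sequence, and knockdown could not be checked here because the files hold L1 reads only. No source used here says whether the 2 libraries of a condition came from separate cultures, so the spread between them may be technical.

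A full-length L1 carries an internal promoter at its 5′ end, followed by ORF1, which encodes an RNA-binding protein, and ORF2, which encodes the endonuclease and reverse transcriptase, and ends in a 3′ untranslated region with a poly(A) tail. TET1 and TET2 oxidise 5-methylcytosine to 5-hydroxymethylcytosine. Small RNAs can act on L1 through several pathways. Endogenous siRNAs are cut from double-stranded RNA, and Piwi-interacting RNAs of the germ line are longer and often begin with uridine. Fragments of the full-length L1 RNA are also sequenced in small RNA libraries.

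The L1Md_A copies were between 4999 and 9892 bp long, with a median of 6013 bp. Open reading frames of the expected order and size were intact in 463 of the 3092 copies (ORF1 of at least 300 codons and ORF2 of at least 1200 codons), with 357 codons in ORF1 and 1281 codons in ORF2 as the most frequent sizes. The boundary at 1000 nt lay inside ORF1 in 310 of these copies and before ORF1 in the other 153. In these intact copies the body as defined thus holds ORF1 in full or in part, all of ORF2 and the 3′ end. Where the boundary lies in the remaining copies was not determined. Positions below are given on a reference copy of 6565 bp with both frames intact (mm9, chr1:63876544-63883108, minus strand), in which ORF1 spans positions 929 to 2002 and ORF2 spans positions 2043 to 5888. Between 99.6% and 99.9% of the body reads of each library could be placed on it.

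The sequences that carried the most body reads are shown first. The rule named the 6 most frequent sequences of 18 to 30 nt, at most 1 per 10-nt stretch. The read is in lower case and the 10 bases that follow its last base in the genome (mm9) are in capitals.
Antisense, ORF2, chr3:18757249-18757266 (−): taccaggttgatcctgccAATCCATGAG
Sense, ORF1, chr1:27252387-27252408 (+): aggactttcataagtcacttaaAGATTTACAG
Sense, ORF2, chr1:145916611-145916628 (+): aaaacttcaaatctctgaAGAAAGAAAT
Sense, ORF2, chr1:27256361-27256381 (+): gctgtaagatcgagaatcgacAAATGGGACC
Sense, ORF1, chr15:43353470-43353490 (−): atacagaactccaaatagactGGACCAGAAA
Sense, ORF2, chr1:19429087-19429113 (−): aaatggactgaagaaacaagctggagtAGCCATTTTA
These 6 sequences had 64, 30, 16, 13, 11 and 8 body reads over the 6 libraries, so none of them held a large part of the 13399. The 5 sense sequences each matched between 1048 and 2641 places in L1Md_A copies without mismatch, and between 1213 and 3358 in L1 copies of all classes. The coordinates give 1 of those places, since a read with several equal matches was given a random one of them. The antisense sequence matched no L1 copy exactly.

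The number of body reads differed widely between libraries. There were 4786 and 3861 body reads in the shScr libraries, compared with 451 and 697 in shTet1 and 2667 and 937 in shTet2. All 4 TET-depleted libraries held fewer than either shScr library. The log2 ratio of the group means was -2.91 for shTet1 and -1.26 for shTet2 (exact two-sided permutation test, p = 0.333 in each, the smallest p that 2 libraries against 2 can give). The files also list fewer L1 reads in total in these libraries, from 11566 and 23484 in shTet1 to 125478 and 128715 in shScr, and whole-library totals were not used here. Sequencing depth, fewer cells and less RNA per cell therefore cannot be told apart in these counts. Shares within a library are used from here on.

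Body reads formed a smaller share of L1Md_A reads in TET1-depleted cells. The share was 62.7% (95% Wilson interval 61.6 to 63.7) and 57.1% (56.0 to 58.3) in shScr. In shTet1 it was 49.6% (46.3 to 52.8) and 50.9% (48.3 to 53.6). In shTet2 it was 53.6% (52.2 to 54.9) and 58.5% (56.1 to 60.9). Both shTet1 libraries lay below both shScr libraries, whereas the shTet2 libraries overlapped them. The mean was 50.2% ± 0.956 (SD, n = 2) in shTet1 against 59.9% ± 3.89 (SD, n = 2) in shScr, a difference of -9.66 percentage points that exceeds either SD (exact permutation p = 0.333). For shTet2 the difference of -3.86 points was no larger than the SD of 3.89 in shScr (exact permutation p = 0.667). Intervals cover counting error only, and PCR copies of a molecule cannot be recognised in these libraries. Groups that do not overlap were common here. Of the 34 comparisons of single values between a knockdown and shScr, 15 had no overlap, so no single separation stands out.

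Body reads were also set against all L1 reads outside the 3 copies with the most reads, a chromosome 13 L1Md_T copy and a pair of chromosome 1 L1Md_F2 copies. They made up 19.8% and 17.2% in shScr, beside 14.8% and 17.3% in shTet1 and 14.9% and 17.1% in shTet2. The shTet2 libraries lay just below both shScr libraries (-2.50 points, exact permutation p = 0.333) and the shTet1 libraries overlapped them (-2.46 points, exact permutation p = 0.667). At the boundary of the rule, the shScr libraries had 185 and 156 reads at 900 to 999 nt and 231 and 154 reads at 1000 to 1099 nt. The counts were 23 and 43 against 21 and 29 in shTet1, and 110 and 40 against 114 and 28 in shTet2.

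**Figure D1:**
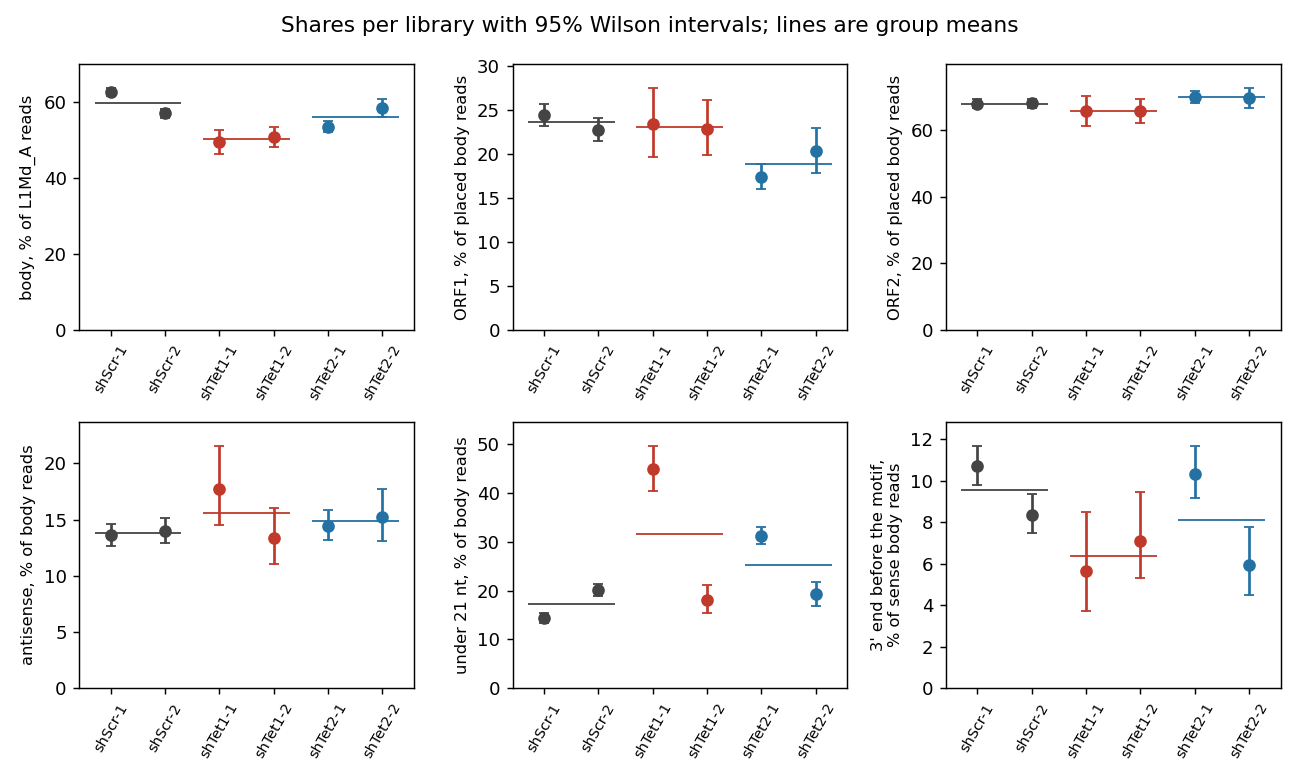
Shares per library, in percent on axes that start at 0, with 95% Wilson intervals (counting error only) and the group means as lines. The body share of L1Md_A reads is 49.6% and 50.9% in shTet1, below both shScr libraries, and the ORF1 share is 17.4% and 20.3% in shTet2, below both shScr libraries. In the last panel the motif is AGAT in the genome after the last base of the read.

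Along the element, reads covered ORF1 and ORF2 and thinned out towards the 3′ end. Per kb of the reference copy, shScr replicate 1 had 1085 reads in ORF1, 843 in ORF2 and 209.7 after ORF2, and shScr replicate 2 had 816, 680 and 183. The density after ORF2 was between 0.249 and 0.357 of the density in ORF2 over the 6 libraries. Part of ORF1 lies before the boundary in some copies, so its density is a lower value than for the whole frame.

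ORF1 held a smaller part of the body reads in TET2-depleted cells. Its share of placed body reads was 24.4% and 22.7% in shScr, against 23.3% and 22.8% in shTet1 and 17.4% and 20.3% in shTet2. Both shTet2 libraries lay below both shScr libraries, with a mean of 18.8% ± 2.04 (SD, n = 2) against 23.6% ± 1.14 (SD, n = 2), a difference of -4.74 points (exact permutation p = 0.333). It was -2.94 points without reads followed by AGAT in the genome, which include most reads of an ORF1 pile-up described further on. With the body counted from 2000 nt it was -1.03 points. On the reference copy that boundary lies at the end of ORF1, so this last value does not measure the same ORF1 share. The shTet1 libraries overlapped shScr (-0.46 points, exact permutation p = 1). The ratio of ORF1 to ORF2 density was 1.29 and 1.20 in shScr, compared with 1.27 and 1.25 in shTet1 and 0.889 and 1.04 in shTet2.

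Reads that lie before ORF1 on the reference copy come from copies with a longer 5′ end than the boundary. They made up 3.87% and 5.27% in shScr, less than the 5.33% and 7.61% in shTet1 and the 7.07% and 5.36% in shTet2. The differences were 1.90 and 1.65 points (exact permutation p = 0.333 in each).

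ORF2 held between 65.7% and 69.95% of the body reads in the 6 libraries. It was 67.8% and 67.9% in shScr, beside 65.8% and 65.7% in shTet1 and 69.95% and 69.7% in shTet2. The shTet1 libraries were both lower (-2.13 points) and the shTet2 libraries both higher (1.96 points) than shScr (exact permutation p = 0.333 in each). The 95% Wilson intervals of all 6 libraries overlap one another. The shTet2 difference was -0.193 points with the body counted from 2000 nt, a boundary at the end of ORF1 on the reference copy. It was -0.000461 points without reads followed by AGAT in the genome, a group described further on.

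Reads after the end of ORF2 were few. They made up 2.97% and 3.22% in shScr, against 4% and 3.30% in shTet1 and 4.40% and 3.75% in shTet2, or 18 to 142 reads per library. All 4 TET-depleted libraries lay above both shScr libraries (0.558 points for shTet1 and 0.981 points for shTet2, exact permutation p = 0.333 in each), but the interval of shTet1 replicate 1 runs from 2.54% to 6.23%. Measured instead as the last 1 kb of each copy, the share was 13.0% and 12.04% in shScr, compared with 12.9% and 10.2% in shTet1 and 17.1% and 11.7% in shTet2. The knockdowns overlapped shScr in that measure (exact permutation p = 0.667 for shTet1 and 1 for shTet2), and the high value of shTet2 replicate 1 was not shared by shTet2 replicate 2. That window takes in the end of ORF2.

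**Figure D2:**
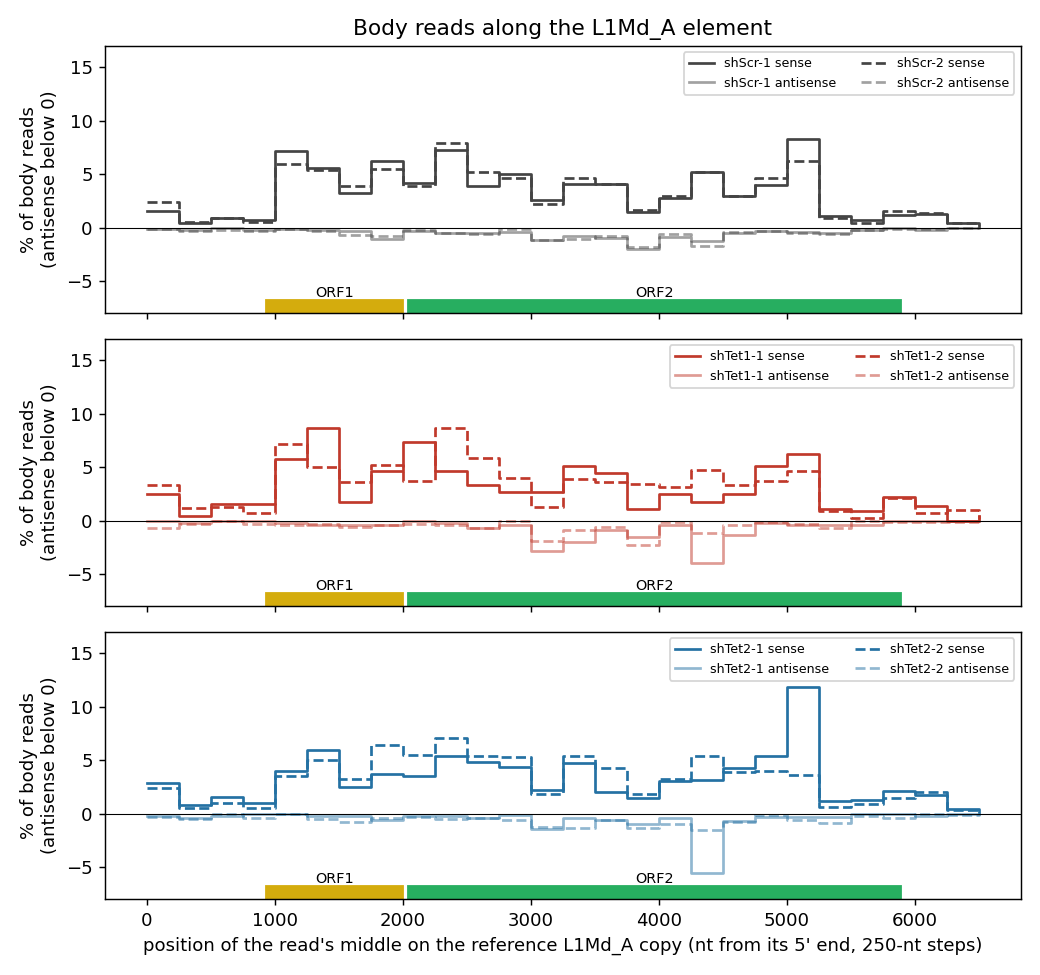
Share of each library's placed body reads (%) in 250-nt steps along the reference L1Md_A copy, sense reads above 0 and antisense reads below, with replicate 1 as solid and replicate 2 as dashed lines. Only body reads are shown, so the low values before 1000 nt follow from the rule that selects them. Reads become few after 5250 nt. In shTet2 replicate 1, 11.8% of body reads lie in the sense step from 5000 nt and 5.53% in the antisense step from 4250 nt, and this library stands out.

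The step from 5000 to 5249 nt, near the 3′ end of ORF2, held 8.26% and 6.26% of the body reads as sense reads in shScr. It held 6.22% and 4.60% in shTet1, and 11.8% and 3.64% in shTet2. In the next step the values were between 0.643% and 1.20% in the 6 libraries. The 2 shTet2 libraries thus lay on either side of shScr.

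Reads were tallied per class, strand and 1-kb bin from the 5′ end of the copy, and limma's voom method was run over the 123 bins that had 10 or more reads in 2 or more libraries. Of these, 11 were L1Md_A body bins, 6 sense and 5 antisense, and none of the 11 passed an adjusted p of 0.05 in either comparison. Over all bins limma called 0% in each comparison at that threshold. At an unadjusted p under 0.05 it called 2 bins (1.63%) for shTet1 and 8 bins (6.5%) for shTet2, of which 0 were L1Md_A body bins. The smallest adjusted p among the body bins was 0.977 for shTet1 and 0.586 for shTet2.

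For shTet1 the body bin with the lowest log2 fold change was sense at 2 to 3 kb (-0.37 ± 0.24 SE, limma adjusted p = 0.977). Its tallies were 941 and 795 in shScr and 71 and 123 in shTet1. The highest was antisense at 2 to 3 kb (0.23 ± 0.39 SE, limma adjusted p = 0.977), with 138 and 109 reads in shScr and 21 and 20 in shTet1. For shTet2 the lowest was antisense at 3 to 4 kb (-0.59 ± 0.33 SE, limma adjusted p = 0.586), with 203 and 141 reads in shScr and 67 and 35 in shTet2. The highest was antisense at 4 to 5 kb (0.61 ± 0.39 SE, limma adjusted p = 0.602), with 136 and 126 reads in shScr and 178 and 31 in shTet2. The 178 reads of shTet2 replicate 1 include 18-nt reads that resemble 18S rRNA, described below, and without such reads the value was -0.19.

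Log2 fold changes were below 0 in 6 of the 11 body bins for shTet1 (54.5%), where 40.7% of all bins were, and in 8 of 11 for shTet2 (72.7%), where 45.5% of all bins were. The median over the body bins was -0.02 for shTet1 and -0.26 for shTet2, beside 0.08 and 0.07 over all bins. On the normalised scale 3 body bins had both shTet1 libraries below both shScr libraries, all 3 of them sense (27.3%, beside 15.4% of all bins), and 1 had both above (9.09%, beside 20.3%). For shTet2, 3 sense bins had both libraries below (27.3%, beside 16.3% of all bins) and 0 had both above (beside 16.3%).

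Most body reads had the orientation of the L1 RNA. The antisense share was 13.6% (95% Wilson interval 12.7 to 14.6) and 14.0% (12.9 to 15.1) in shScr. In shTet1 it was 17.7% (14.5 to 21.5) and 13.3% (11.02 to 16.1). In shTet2 it was 14.4% (13.2 to 15.8) and 15.3% (13.1 to 17.7). The shTet1 libraries fell on either side of shScr (1.74 points, exact permutation p = 1). Both shTet2 libraries were slightly above (1.04 points, exact permutation p = 0.333), a difference that turned to -0.75 points without the 18S-like reads. Antisense reads were less frequent in ORF1, with 6.49% to 8.56% of its reads, than in ORF2, with 15.3% to 24.3% (10.7% to 20% without the 18S-like reads). The ranges do not overlap, and ORF2 was higher in each of the 6 libraries.

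An unusual group of antisense body reads in ORF2 had the sequence of the start of 18S ribosomal RNA with up to 3 changes. The most frequent ones are shown under the genomic 18S start on chromosome 17, with the changed bases in capitals. The group was noticed in the data and its members were chosen after their values were seen.
18S start, chr17:39983298-39983315 (+), mm9: tacctggttgatcctgcc
64 body reads, T5A: taccAggttgatcctgcc
53 body reads, C4A and T5A: tacAAggttgatcctgcc
50 body reads, C4A, T5A and T15A: tacAAggttgatccAgcc
19 body reads, C4A: tacAtggttgatcctgcc
Positions count from 1 at the 5′ end, and the base of the 18S start comes first. The chromosome 17 place begins a stretch of 1849 nt that ends with the last bases of 18S rRNA. RefSeq lists a pseudogene of that length there, Rn18s-rs5, on a later build. The second of the 4 read sequences occurs without mismatch in 11 places in L1 copies of all classes. Of these places 1 is in an L1Md_A copy, chr4:112095886-112095903. The other 3 sequences do not occur in any L1 copy.

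Reads within 3 mismatches of the 18S start numbered 48 and 44 in the shScr bodies, against 16 and 3 in shTet1 and 137 and 9 in shTet2. That is 1.00% and 1.14% of body reads in shScr, compared with 3.55% and 0.430% in shTet1 and 5.14% and 0.961% in shTet2. Replicate 1 of each knockdown was high and replicate 2 was not, so neither knockdown was separated from shScr (exact permutation p = 1 in each). They made up 35.6% of the antisense body reads of shTet2 replicate 1 and 20% of those of shTet1 replicate 1, against 3.23% to 8.15% in the other 4 libraries. Of the 257 such reads 219 were 18 nt long, all 257 were antisense, and 256 had their 5′ end at reference position 4502. The source of these reads was not tested.

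Body reads had no preferred small RNA length. Median lengths were 34 and 31 nt in shScr, 22 and 32 nt in shTet1, and 27 and 34 nt in shTet2, over a range of 15 to 76 nt. The libraries were size-selected on a gel, which limits the lengths that can be seen. The part of that selection in these values was not tested. The most frequent length held no more than 4.14% of the reads in 4 of the libraries, 11.1% (16 nt) in shTet1 replicate 1 and 9.34% (18 nt) in shTet2 replicate 1. Reads under 21 nt made up 14.3% and 20.1% in shScr, beside 45.0% and 18.1% in shTet1 and 31.2% and 19.2% in shTet2. Replicate 1 of each knockdown was the library with shorter reads, and no group was separated from shScr (exact permutation p = 0.667 in each).

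The length class of siRNAs, 21 to 23 nt, held 8.67% and 9.17% of the body reads in shScr, against 10.9% and 8.32% in shTet1 and 10.2% and 8.32% in shTet2. The differences of 0.673 and 0.323 points were smaller than the spread between knockdown replicates (exact permutation p = 1 in each). The class from 24 to 32 nt, which contains the lengths of Piwi-interacting RNAs, held 23.2% and 23.3% in shScr, compared with 21.5% and 24.96% in shTet1 and 25.01% and 19.9% in shTet2. Its differences of -0.00744 and -0.813 points were likewise within that spread (exact permutation p = 1 in each).

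**Figure D3:**
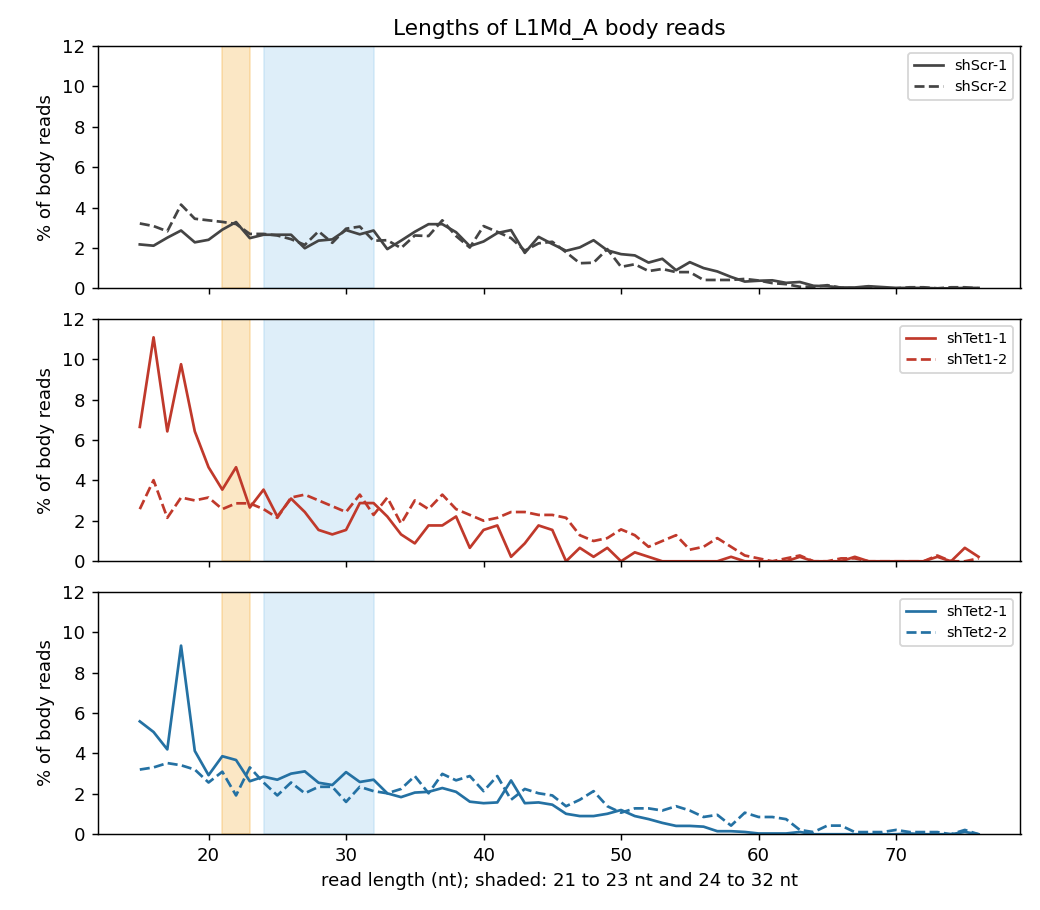
Length of body reads (nt) against their share of the library's body reads (%), with replicate 1 as solid and replicate 2 as dashed lines and shading for 21 to 23 nt and 24 to 32 nt. No library has its peak in a shaded range except shScr replicate 1, whose most frequent length of 22 nt holds 3.28%, and the tall peaks are the 16-nt reads of shTet1 replicate 1 (11.1%) and the 18-nt reads of shTet2 replicate 1 (9.34%).

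The 3′ ends of sense body reads were piled up at a few positions. The 6 positions with the most ends held 11.4% of the 11465 sense reads whose end could be placed, whereas the 6 positions with the most 5′ ends held 2.87%. The 2 positions with the most ends were 5075, in ORF2, with 407 reads and 1116, in ORF1, with 389 reads. Reads that ended at the same base began at many, so they form nested sets. In shScr replicate 1, the 163 reads ending at position 5075 had 27 different 5′ ends and the 204 reads ending at position 1116 had 40. Of each set the most frequent read over 30 nt is shown, chosen after its values were seen, with the next 10 genomic bases in capitals.
Ending at 5075, chr1:78981900-78981939 (−), mm9: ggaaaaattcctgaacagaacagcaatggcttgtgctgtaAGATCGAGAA
Ending at 1116, chr1:8679854-8679890 (+), mm9: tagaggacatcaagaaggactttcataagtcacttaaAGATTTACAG
The first had 37 reads, 1 or more in 5 libraries, and the second 29 reads in 4 libraries. Without mismatch they matched 2232 and 2306 places in L1Md_A copies, and 5875 and 2964 in L1 copies of all classes. The 22-nt ORF1 sequence shown earlier ends at the same base as the second. The 30 reads of that sequence were placed in 30 different copies.

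In the genome, both places continue with AGAT. The letters AGAT followed 97.8% of the reads ending at position 5075 and 77.9% of those ending at position 1116. The next 4 positions, with 148, 130, 125 and 108 reads, are shown on the reference copy with 20 bases before the end in lower case.
Position 1799, ORF1: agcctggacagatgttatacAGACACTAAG
Position 5090, ORF2: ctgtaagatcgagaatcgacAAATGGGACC
Position 2294, ORF2: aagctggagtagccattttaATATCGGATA
Position 4428, ORF2: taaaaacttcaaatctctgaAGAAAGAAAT
The letters AGA followed 99.3% of the reads ending at 1799 and 100% of those ending at 4428, and 0% at the other 2 positions.

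The letters were noticed in these ends, and their share in all sense body reads was computed afterwards. AGAT followed 10.7% and 8.37% in shScr, beside 5.66% and 7.12% in shTet1 and 10.3% and 5.92% in shTet2. The letters AGAT, searched on the sense strand, start at 0.850% of the 15308057 positions of the L1Md_A copies from 1000 nt on. The share after reads was higher in each of the 6 libraries, which the choice of letters from these same reads favours. Both shTet1 libraries lay below both shScr libraries (-3.14 points), while shTet2 overlapped shScr (-1.40 points). Most reads of the pile-up at position 1116 came from shScr, so the choice also favours a high shScr share. Permutation tests were run on this share but are not used here. Among antisense body reads the share followed by AGAT was 0% to 3.75%. The adapter sequence that read trimming removes begins with the same 4 letters. The part of trimming in these ends was not tested.

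**Figure D4:**
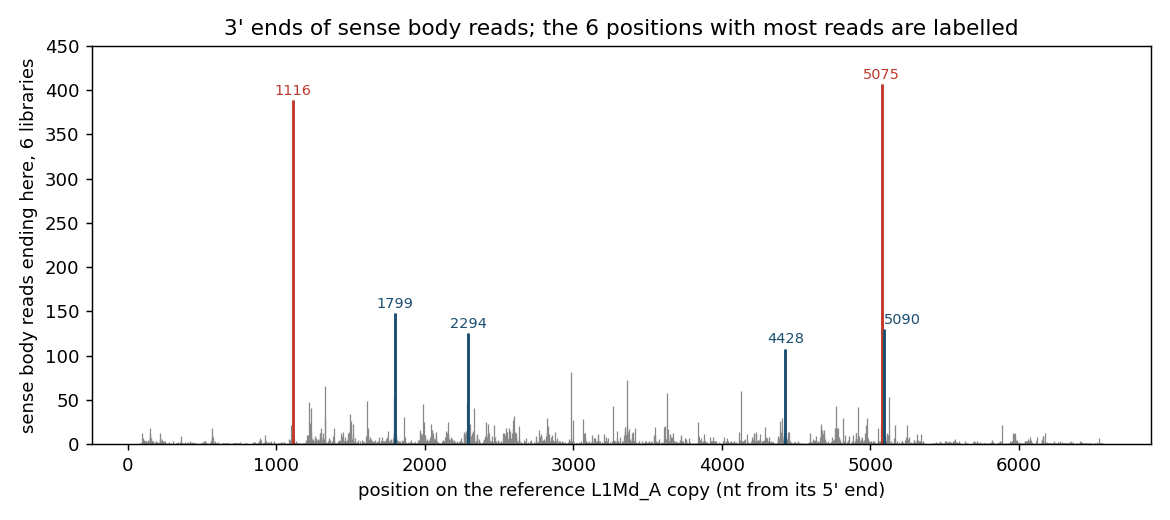
Number of sense body reads of the 6 libraries (vertical axis) whose last base lies at each position of the reference L1Md_A copy (horizontal axis, nt from the 5′ end). The 6 positions with the most ends are labelled, and red marks 5075 (407 reads) and 1116 (389 reads), where most reads are followed by AGAT in the genome.

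Position 1116 took 4.95% and 3.78% of the sense body reads in shScr, against 1.084% and 4.31% in shTet1 and 0.837% and 1.39% in shTet2. Both shTet2 libraries lay below both shScr libraries, with 19 and 11 reads against 204 and 125, while shTet1 replicate 2 lay between them. Position 5075 took 3.95% and 1.93% in shScr, compared with 2.17% and 0.829% in shTet1 and 6.87% and 1.39% in shTet2. There the shTet2 libraries lay on either side of shScr. Both positions were picked for their ends summed over the 6 libraries, most of which came from the larger shScr libraries at position 1116. That choice favours a high shScr share, so these values are given as a description. Permutation tests were run on them but are not used here. Position 1116 lies in ORF1 and position 5075 in the step from 5000 nt described above, so the segment shares and these pile-ups are not independent measures.

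Body reads were spread thinly over copies. Over the 6 libraries the median copy with body reads had 4, the highest had 177, and 121 of 3033 copies had 10 or more. The 303 copies with the most reads held 25.5% of the body reads. A read sequence matched a median of 1935 to 2233 places in L1Md_A copies without mismatch per library. A single place within L1Md_A copies was matched by 4.73% to 6.72% of the reads. Between 79.4% and 85.6% of the body reads per library matched L1 copies of other classes without mismatch. The class of most body reads can therefore also be 1 of several equal matches. For most reads the copy named in the files is therefore 1 of many equal matches.

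Copies reached were 2365 and 2120 in shScr, beside 394 and 608 in shTet1 and 1661 and 782 in shTet2, in the order of the numbers of reads. At an equal number of 451 reads the expected number of copies was 412 and 411 in shScr, against 394 and 411 in shTet1 and 395 and 410.3 in shTet2. The differences were -9.03 copies for shTet1 (exact permutation p = 0.667) and -9.01 for shTet2 (exact permutation p = 0.333). Without replicate 1 of the knockdown they were -0.569 and -1.16. For shTet2 the difference was also smaller with each position counted once (-1.22), without 18S-like reads (-2.09) and without reads with mismatches (-1.39). The 5 copies with the most reads held 5.999% of the body reads of shTet2 replicate 1 and 5.76% of those of shTet1 replicate 1, each library's own, against 1.94% to 2.67% in the other 4.

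The 5 copies with the most body reads over all libraries held 2.61% of them. The first, chr4:112093829-112099915 (mm9, minus strand), lies in an intron of Skint9 and had 177 reads, of which 176 were 18S-like. Its reads numbered 35 and 31 in shScr, compared with 11 and 2 in shTet1 and 91 and 7 in shTet2. The fourth, chr3:18752743-18758333 (plus strand), overlaps no GENCODE gene and had 38 18S-like reads of 40, with 28 in shTet2 replicate 1 and 0 to 5 in each other library. The second, on chromosome 18, had 52 reads (48 antisense). The third, chr12:15872823-15879197 (minus strand), lies in an intron of Gm5432 and had 42 reads (37 antisense). In the copies on chromosomes 18 and 12, 1 sequence made up 67.3% and 66.7% of the reads, 8 and 5 reads matched the genome without mismatch, and the median length was 16 nt.

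The fifth copy differed from these. It is chrX:152873481-152878660 (plus strand, mm9), with no overlapping GENCODE gene, and its 39 reads were all antisense, 17 to 64 nt long (median 42 nt) and of 35 different sequences. They were placed between 3492 and 3546 nt from its 5′ end, and 21 of them matched this copy and no other L1Md_A place. They numbered 17 and 16 in shScr, beside 0 and 3 in shTet1 and 2 and 1 in shTet2. As a share of body reads that is 0.355% and 0.414% in shScr, 0% and 0.430% in shTet1, 0.075% and 0.107% in shTet2. Both shTet2 libraries lay below both shScr libraries, and shTet1 replicate 2 lay above them, a description of 1 copy that was not tested. The copy was named for its reads summed over the 6 libraries, most of which came from shScr. That choice favours a high shScr share. A count of 0 among the 451 body reads of shTet1 replicate 1 allows a share of up to 0.665%.

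Body reads were compared with reads in the first 1000 nt of L1Md_A copies and with body reads of L1Md_T copies (without the 3 copies with the most reads), within each library. There were 12 such comparisons over 6 libraries, for which the smallest exact two-sided permutation p is 0.0312 and 0.0536 after Benjamini-Hochberg adjustment. The share of 21 to 23 nt was lower in the body than in the first 1000 nt in 6 of 6 libraries (9.25% against 14.6% on average), and the mean length was larger in 6 of 6 (31.5 against 27.03 nt). Both reached that smallest exact p of 0.0312 (adjusted 0.0536), which misses the threshold of 0.05 after adjustment. Reads of the 18S-like group numbered 0 in the first 1000 nt in each library, which allows a share of up to 0.654% in the smallest, with 459 reads there. The antisense share differed by -1.73 points, lower in 5 of 6 libraries (exact permutation p = 0.281, adjusted 0.307), and by -3.52 points without the 18S-like reads, again lower in 5 of 6 (exact permutation p = 0.0625, adjusted 0.0938).

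Against L1Md_T bodies, the antisense share of L1Md_A bodies was lower in 6 of 6 libraries, 14.7% against 23.9% on average and 12.9% against 18.02% without the 18S-like reads. The share of 18S-like reads (2.04% against 7.11%) and the mean length (31.5 against 33.2 nt) were also lower in 6 of 6 libraries. Each of these had the smallest exact permutation p of 0.0312 (adjusted 0.0536). The shares of 21 to 23 nt and 24 to 32 nt differed by 0.764 and 1.12 points without a common direction (exact permutation p = 0.281 and 0.375, adjusted 0.307 and 0.375). The reads of the 2 classes may not be distinct, since reads with equal matches were placed at random. Per library, 78.8% to 90.0% of sense and 54.5% to 82.5% of antisense L1Md_A body reads matched other L1 classes without mismatch. The part of this placement in the differences was not tested.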

How the data were processed

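Small RNA-seq libraries of shScr, shTet1 and shTet2 ESCs were size-selected on a gel. Per the paper's methods and the labels, the authors trimmed reads with Trim Galore 0.3.3 (at least 15 nt kept) and aligned them to mm9 with Bowtie2 2.1.0, placing reads with equal matches at random. The deposited files list single reads with their positions and those of the L1 copy, and hold no counts or other measured values. Members and lists were chosen with earlier results of these data known.

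Distances from the 5′ end were computed by strand. Reads with 60 nt of flanking genome (NCBIM37, the same build) were placed on a reference copy by blastn 2.17.0 (E-value 1e-05). Exact matches were counted with bwa 0.7.19. Tallies per bin were tested with limma 3.58.1 (R 4.3.3) voom, all 6 libraries in 1 model, TMM factors from their published definition and p-values adjusted by Benjamini-Hochberg. The script was tested on simulated data. Single values were compared by exact two-sided permutation tests (scipy 1.17.1), 34 in all, with a smallest adjusted p of 0.756. The bodies held 451 to 4786 reads per library, and 3 reads are 0.0627% to 0.665%. A chi-square test over strand and 1-kb bin gave p = 0.222 for the shScr replicates, 0.018 for shTet1 and 2.27e-08 for shTet2. With each position counted once the chi-square test gave p = 0.266 for shScr, 0.279 for shTet1 and 8.23e-07 for shTet2. For shScr no difference beyond sampling noise was detected in that measure. Its replicates were kept as 2 libraries, since the counting intervals of their body shares do not overlap. Sequences were named as the most frequent of 18 to 30 nt that were not placed on chromosome 18, and copies as the 5 with the most body reads. Alternatives were counting each position once, a boundary at 2000 nt, reads of 18 to 32 nt, removal of reads with at least 80% A or T, of the first copy, of 18S-like reads, of reads with mismatches and of reads followed by AGAT (the last 3 added after seeing the data), other scalings, and each replicate left out.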

Additional observations from a re-analysis of the deposited data

Results flagged for a closer look

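The share of body reads in ORF2 moved in opposite directions in the 2 knockdowns. It was -2.13 points in shTet1 and 1.96 points in shTet2 relative to shScr, with both shTet1 libraries under and both shTet2 libraries over the pair of shScr libraries. The difference between the knockdowns was not tested, and the counting intervals of all 6 libraries overlap. Groups of 2 libraries are too small for a check of outlying samples.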

How the results depend on the processing

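Depth and replicate number limit these results: shTet1 rests on 451 and 697 body reads, 2 libraries per condition cannot reach an exact p under 0.333, and most reads match many copies. No alternative changed the direction of the body reads, the body share of L1Md_A reads or the copies reached, nor, among those run for it, of the share of L1 reads outside the 3 copies with the most reads. That share was not recomputed without mismatched reads or without reads followed by AGAT. Copies reached for shTet1 were -3.15 with reads of 18 to 32 nt, -5.64 without 18S-like reads, -5.90 counted once and -3.22 without mismatched reads, and for shTet2 -4.06 without the first copy.

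The antisense difference of shTet2 turned to -0.457 points with each position counted once, -0.13 without the first copy and -0.75 without 18S-like reads. With reads of 18 to 32 nt the difference in 21 to 23 nt was -1.59 points for shTet1 and -0.565 for shTet2, and that after ORF2 -0.161 for shTet1. The difference in 24 to 32 nt for shTet1 was 0.204 points from 2000 nt, 0.00738 without reads rich in A or T, 0.118 without the first copy and 0.19 without 18S-like reads. From 2000 nt the shTet2 differences were -0.193 points in ORF2 and 0.962 for ends followed by AGAT. Without reads followed by AGAT they were -0.000461 points in ORF2 and -0.0459 at position 5075. Causes of these changes were not tested.

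Leaving out 1 library gave ranges for shTet1 and shTet2. They were -3.26 to -2.63 and -2.21 to -0.70 for the log2 ratio of body reads. In percentage points they were -12.4 to -6.91 and -6.61 to -1.11 for the body share, -3.77 to -1.15 and -3.81 to -1.19 for the share of L1 reads outside the 3 copies, 0.764 to 3.05 and 0.789 to 2.50 before ORF1, 0.21 to 0.906 and 0.657 to 1.31 after ORF2, -0.462 to 3.93 and 0.631 to 1.46 for antisense, -0.598 to 1.94 and -0.595 to 1.24 for 21 to 23 nt, -1.74 to 1.72 and -3.39 to 1.77 for 24 to 32 nt, -2.32 to 0.351 and -0.77 to 4.55 for the last 1 kb, -1.27 to 0.342 and -6.18 to -3.29 for ORF1, -4.30 to -1.98 and -3.61 to 0.81 for ends followed by AGAT, -0.641 to 2.48 and -0.111 to 4.07 for 18S-like reads, and -2.45 to -0.436 and -1.55 to 3.93 at position 5075. For copies reached they were -17.5 to -0.569 and -16.8 to -1.16 copies.

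In limma, 0 L1Md_A body bins passed under every alternative run. Over all bins, 0 passed in the main settings, 3 for shTet1 and 2 for shTet2 with each position counted once, 2 for shTet1 with at least 1 read, and 0 to 3 for shTet2 when 1 library was left out, 3 without shTet2 replicate 2 and 1 without shScr replicate 2. Counted once, the antisense bin at 2 to 3 kb for shTet1 was -0.0036 and the one at 4 to 5 kb for shTet2 was -0.038, or -0.19 without 18S-like reads. With 1 library left out the former ranged from -0.05 to 0.54.

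Same-numbered libraries did not deviate together in every pair (correlations over 123 bins of -0.03, 0.189 and 0.258), so the numbers were not taken as pairs. With the replicate block in the model limma again called 0 bins in each comparison, and block differences of single values had the directions given in the report.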

Other observations

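Among body reads of 24 to 32 nt, 2744 were sense and 380 antisense with both ends placed on the reference copy. Pairs whose 5′ ends overlapped by 10 nt, the distance known from Piwi-interacting RNA pairs, numbered 31 when counted within each library and summed over the 6 libraries. The other 19 overlaps from 1 to 20 nt had 23 to 56 pairs (median 41), and 15 of them had at least as many pairs as 10 nt.

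The first base of sense body reads was A in 45.3% to 52.5% of reads, where A makes up 40.3% of the sense strand of the copies from 1000 nt on. The first base of antisense body reads without the 18S-like ones was T in 44.4% to 56.7%, where T makes up 40.3% of the antisense strand. Sense body reads matched the genome without mismatch in 87.0% to 96.2%, and antisense reads without the 18S-like ones in 75% to 88.8%.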
